A study of Mus musculus with 3 samples.

Results

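Icam1 and 7 other adhesion molecules for leukocytes were examined in primary cultures of PyMT mammary tumors with and without RANKL (RL). The 8 genes, Icam1, Icam2, Vcam1, Sele, Selp, Alcam, F11r and Madcam1, were taken as a named group of immunoglobulin-family and selectin adhesion molecules, among 21154 gene symbols with a probe on the array. Every probe whose accession maps to one of them was included, which gave 10 of 55681 probes and 19 of 59305 spots per array. A probe well above background in all 3 RL channels or in all 3 control channels was found for 6 of the 8 genes, and 21743 genes and transcripts passed the same filter over the whole array.

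Cells of 3 MMTV-PyMT tumors were cultured, and each tumor gave 1 culture treated with RL for 24 h and 1 untreated control culture. Both RNAs of a tumor were labeled with different dyes and hybridized to the same Agilent mouse array, so that 3 arrays held 6 channels. The RL culture carried Cy3 in tumors 1 and 3 but Cy5 in tumor 2, and no tumor was measured with both dye orders. The study's methods report dye swaps for every sample, which these arrays do not hold. The 3 arrays shared 1 slide and 1 scan.

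The MMTV promoter drives the polyoma middle T antigen in mammary epithelium, so tumors arise from epithelial cells. The study's methods name the MMTV-PyMT line in FVB/N and, for crosses with RANK mutants, in C57BL/6. For tumor cells used in orthotopic transplants, with or without RANK, they give C57BL/6. The labels give no strain, age or RANK mutation for the cultured tumors. Control and RL cultures shared the medium, DMEM F12 with fetal bovine serum, penicillin and streptomycin, cholera toxin, insulin and EGF. The labels call the samples primary tumor cultures, while the methods describe acinar cultures of cells from transplanted tumors, seeded on matrigel with reduced growth factors. RL was added 24 h after plating, at 1 µg/mL by the methods and at 1000 µg/mL by the labels, and the dose cannot be settled from the files. The data availability statement of the study points to another series for preclinical arrays, and the arrays used here were tied to the experiment through their labels.

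Leukocytes leave the blood by rolling on selectins of the vessel wall and then by binding of their integrins to immunoglobulin-family ligands. Icam1 and Icam2 are ligands of the β2 integrins, Vcam1 and Madcam1 of the α4 integrins, and Alcam of Cd6. Icam1 is a known target of NF-κB, the transcription factor family that RANK activates, and it is also made by epithelial cells exposed to inflammatory cytokines.

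Icam1, the ligand of the integrins LFA-1 and Mac-1, had the largest ratio of RL over control among the 6 genes tested. Its single probe, for NM_010493, was well above background in all 6 channels. The control channel gave a normalized level of 6.40, 7.33 and 7.42 in tumors 1, 2 and 3, in log2 intensity. With RL, the level was 7.11, 7.81 and 7.69. RL was thus above control within each tumor, while the ranges of the conditions overlapped between tumors, since RL in tumor 1 lay below control in tumors 2 and 3. Mean levels were 7.05 ± 0.57 in control and 7.54 ± 0.37 with RL (SD, n = 3).

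The log2 ratio of RL over control for Icam1 was 0.72, 0.48 and 0.27 in tumors 1, 2 and 3, which is 1.64-fold, 1.39-fold and 1.21-fold. The mean was 0.49 (SE 0.091, 95% interval 0.28 to 0.70, n = 3 tumors), with an adjusted p of 0.228 from limma over all genes tested. Icam1 did not pass the threshold of 0.05, which 1 gene (0.0046%) passed upward and 5 genes (0.023%) passed downward. None of the 6 tested adhesion molecules passed it in either direction. Without adjustment, limma gave p under 0.05 for 2 of the 6, Icam1 and Vcam1, both upward, and for 3.5% of all genes upward and 3.58% downward. In bulk cultures, fewer cells of a type and less RNA per cell cannot be told apart.

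The mean log2 ratio of Icam1 was exceeded by that of 33 of the 21743 genes and transcripts. In single tumors, 57 genes had a larger log2 ratio in tumor 1, 212 in tumor 2 and 913 in tumor 3. Icam1 therefore lay nearer to the edge of the distribution in tumor 1 than in tumor 3.

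Across 21721 genes, which are not independent replicates, the log2 ratios of tumors 1 and 3 had a Pearson's r of 0.453, and tumor 2, with the opposite dye order, had −0.112 with tumor 1 and −0.108 with tumor 3. For Icam1, the value of tumor 2 lay between those of the other tumors in the main fit. With arrays centered on their median in place of loess it was the highest, at 0.76 against 0.63 in tumor 1 and 0.010 in tumor 3. Adding a term for the dye to the fit in limma, which leaves 1 residual degree of freedom, gave a log2 ratio of 0.49 and an adjusted p of 0.000530. Upward calls of that fit covered 0.557% of all genes, and downward calls 0.723%. Without tumor 2 the log2 ratio was also 0.49, with an adjusted p of 0.000703 from limma, where 2.56% of all genes were called higher. Both remaining arrays carry RL in Cy3, so that fit cannot tell RL from the dye, and Krt18, whose ratios followed the dye order, also passed its threshold. The dye term in turn rests on tumor 2 alone, the only tumor with RL in Cy5. It cannot tell dye from what else differs in that tumor, here and for the genes below. By a rank product written for this work, with 1000 permutations, the proportion of false positives (pfp) of Icam1 was 0.0504, above the threshold of 0.05 that 0.17% of genes passed upward and 0.235% downward.

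The spots of Icam1 were dim. In tumor 1 the control signal was 100 over a local background of 71 and the RL signal 89 over 35, in the units of the scanner. In tumor 2 the control signal was 99 over 38 and the RL signal 283 over 72.5. In tumor 3 the control signal was 224 over 75 and the RL signal 148 over 42. The dyes differ in brightness and background, so these signals are compared only after normalization.

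An offset of 50 was added to the corrected signals before ratios were taken, which draws the ratios of dim spots toward 0. With an offset of 10, Icam1 had log2 ratios of 1.14, 0.61 and 0.36 in tumors 1, 2 and 3. From the scanner software's processed signals, which carry no such offset, they were 1.69, 0.74 and 0.48, with a mean of 0.97. Tumor 1 gave the highest and tumor 3 the lowest ratio in each of these settings, and the size of the ratio depended on the treatment of background. With arrays centered on their median in place of loess, which moved the median of all genes to −0.11, Icam1 had 0.63, 0.76 and 0.010, so that tumor 2 was the highest and tumor 3 lay near 0. Probes printed 10 or more times on the array show the error of single spots. At levels within 0.5 of that of Icam1, the median SD of their log2 ratios within an array was 0.091, 0.082 and 0.086 in tumors 1, 2 and 3, over 40, 26 and 28 probes. The highest SD among them was 0.13, 0.14 and 0.13, and the ratio of Icam1 in the main fit exceeded it in each tumor. With median centering, for which this spread was not computed, the ratio in tumor 3 was 0.010. This spread is that of spots on 1 array and does not cover differences between cultures or dyes.

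**Figure D1:**
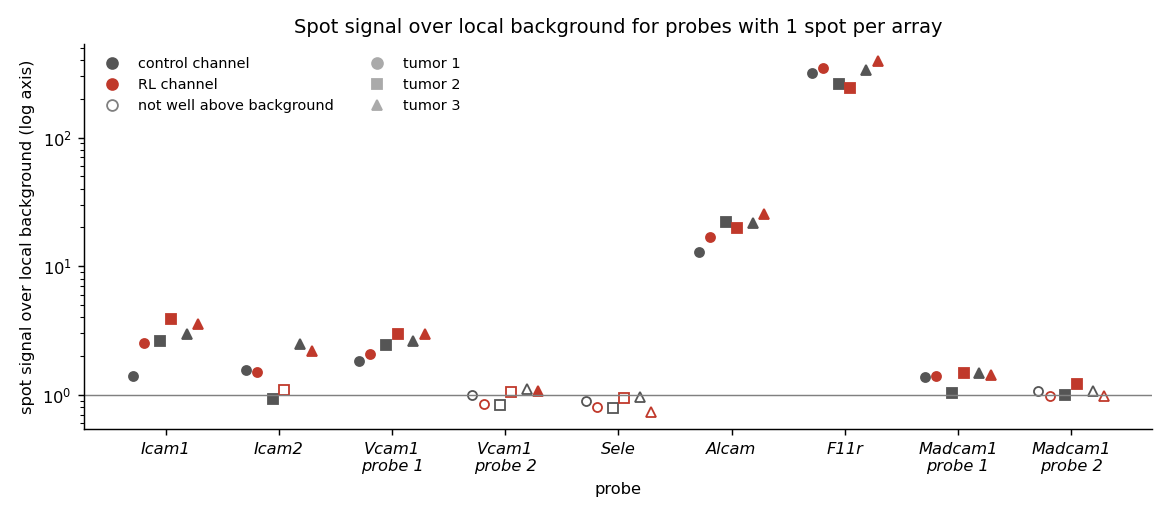
Spot signal divided by its local background (log axis) for the 9 probes printed once per array, with control channels in grey, RL channels in red and 1 symbol per tumor; open symbols are channels that the scanner software did not call well above background. Icam1, Vcam1 probe 1 and Madcam1 probe 1 are dim but called in all 6 channels, Sele is called in none, and Alcam and F11r lie well clear of background.

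**Figure D2:**
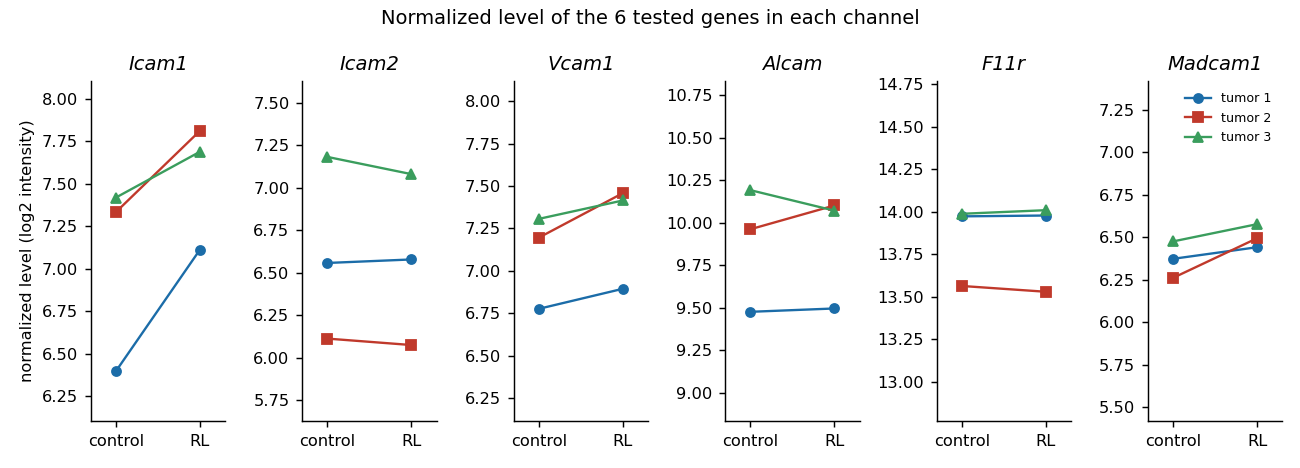
Normalized log2 level of the 6 tested genes in the control and RL channel of each tumor, joined by a line per tumor, on axes of the same span. The line of Icam1 rises from control to RL in each tumor (6.40 to 7.11, 7.33 to 7.81 and 7.42 to 7.69), and the lines of F11r are nearly flat, which they are not with median centering (log2 ratios −0.70, 0.64 and −0.54).

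Vcam1, the endothelial and stromal ligand of the integrin VLA-4, had smaller ratios of the same sign. Its brighter probe was well above background in all 6 channels, with control levels of 6.78, 7.20 and 7.31 in tumors 1, 2 and 3. The levels with RL were 6.90, 7.46 and 7.41. RL was above control in each tumor, while with median centering the log2 ratio was 0.0077, 0.47 and −0.11. The log2 ratio was 0.12, 0.26 and 0.11, with a mean of 0.16 (SE 0.071, 95% interval 0.00099 to 0.32) and an adjusted p of 0.705 from limma. A second probe for the same accession, NM_011693, was well above background only in the RL channel of tumor 3, and gave log2 ratios of 0.016, 0.042 and 0.11. The sign of the second probe depended on the processing, with −0.12 in tumor 2 by median centering and −0.22 in tumor 1 from the scanner software's processed signals, and it measured little above background.

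Madcam1, the mucosal ligand of the integrin α4β7, was barely above background. The probe tested was called well above background in all 6 channels, though its control signal in tumor 2 was 40 over a local background of 39. Control levels were 6.37, 6.26 and 6.48 in tumors 1, 2 and 3, and levels with RL were 6.44, 6.49 and 6.58. The log2 ratio was 0.068, 0.23 and 0.10, with a mean of 0.13 (SE 0.071) and an adjusted p of 0.772 from limma. The mean was 0.085 without tumor 2, 0.26 with an offset of 10 and 0.36 from the scanner software's processed signals. The other probe was well above background in both channels of tumor 2 and in no other channel, and its ratios are not read here. In the main fit, Madcam1, Vcam1 and Icam1 were the 3 of 6 tested genes with a ratio above 0 in all 3 tumors (Vcam1 not with median centering), as were 14.1% of all genes, and 0 of 6 were below 0 in all 3 tumors, as were 13.5%. Icam2 was below 0 in all 3 tumors with median centering, without background correction and with the authors' log2 ratios. F11r was so with the scanner software's processed signals.

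Icam2, a constitutive ligand of LFA-1 on endothelium and platelets, had ratios near 0. Its probe was called well above background in 5 of 6 channels, the exception being RL in tumor 2. The control signal in tumor 2 was 37 over a local background of 40, and the RL signal 81 over 75. Control levels of 6.56, 6.11 and 7.18 in tumors 1, 2 and 3 stood beside RL levels of 6.58, 6.07 and 7.08. Tumors 1 and 3 differed more from each other than the conditions did, and tumor 3 had the highest level in both. The levels of tumor 2 lay at background, so the ratio of that tumor is not exact. The log2 ratio was 0.021, −0.038 and −0.10, with a mean of −0.040 (SE 0.069, 95% interval −0.20 to 0.12) and an adjusted p of 0.935 from limma.

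Alcam, the ligand of Cd6, which also joins epithelial cells to one another, had control levels of 9.48, 9.96 and 10.19 in tumors 1, 2 and 3. With RL they were 9.50, 10.10 and 10.07. Its log2 ratio was 0.020, 0.14 and −0.12, with a mean of 0.013 (SE 0.076, 95% interval −0.16 to 0.19) and an adjusted p of 0.982 from limma. The sign differed between tumors, and the mean was −0.12 with median centering and −0.051 without tumor 2.

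F11r, the junctional adhesion molecule JAM-A of epithelial tight junctions and platelets, gave signals far above background, the lowest being 8310 over a local background of 32 in the control channel of tumor 2. Its control levels were 13.97, 13.56 and 13.99 in tumors 1, 2 and 3. Its RL levels were 13.98, 13.53 and 14.01. The log2 ratio was 0.0050, −0.034 and 0.021, near 0 in each tumor, but with median centering, which removes no trend with intensity, it was −0.70, 0.64 and −0.54, as the dye order ran. The mean was −0.0026 (SE 0.067, 95% interval −0.16 to 0.15), with an adjusted p of 0.996 from limma and a sign that turned in 3 alternative settings.

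The 2 selectins of the group were not measured above background. Sele, the cytokine-induced selectin of endothelium, was well above background in 0 of 6 channels, with signals of 26.5 to 73 over local backgrounds of 33 to 76. Selp, the selectin stored in platelets and endothelium, has a probe printed 10 times per array. Of its spots in tumors 1, 2 and 3, 3, 3 and 4 were well above background with RL, and 2, 5 and 5 in control. This was 22 of 60 spot readings, and in no channel did more than 5 of 10 spots pass. No ratio is given for either gene, since both conditions were not well above background.

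**Figure D3:**
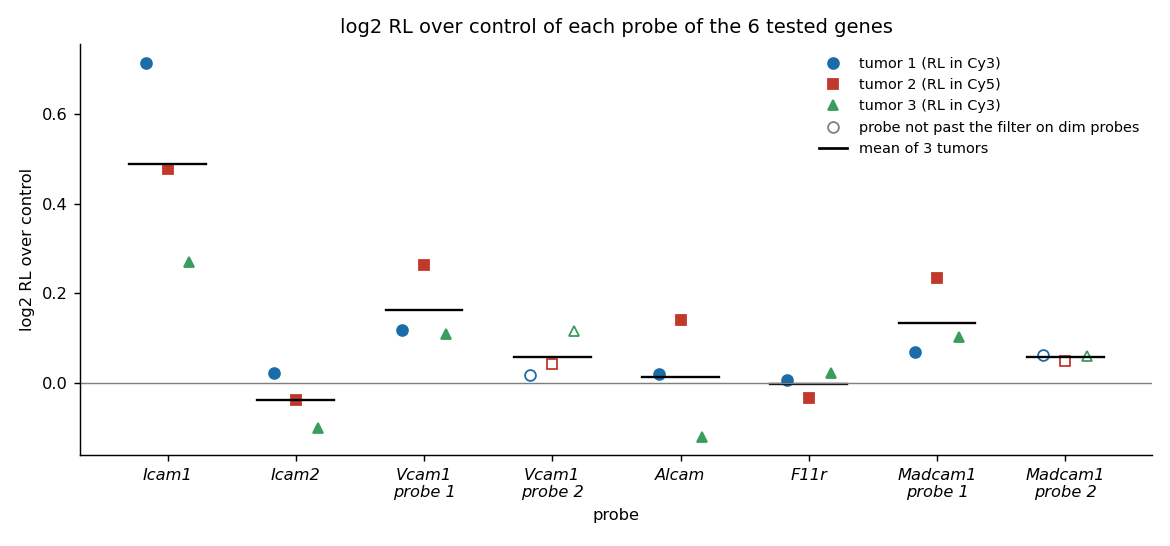
Log2 RL over control of each of the 8 probes of the 6 tested genes in tumors 1, 2 and 3, with the mean as a bar; open symbols are probes that did not pass the filter on dim probes. Icam1 has a mean of 0.49 and stands above the other probes in each tumor, though not in tumor 3 with median centering (0.010) and, from the scanner software's processed signals, not above Vcam1 probe 2 in tumors 2 and 3 (1.12 and 0.87), and the next is Vcam1 probe 1 with a mean of 0.16.

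Within an array, the log2 ratio of Icam1 exceeded that of each other tested gene, except with median centering, where Madcam1 (0.044) was above Icam1 (0.010) in tumor 3. The smallest mean difference was that from Vcam1, 0.60, 0.22 and 0.16 in tumors 1, 2 and 3, with a mean of 0.32 ± 0.24 (SD, n = 3). The largest was that from Icam2, 0.69, 0.52 and 0.37, with a mean of 0.53 ± 0.16, though Icam2 lay at background in tumor 2. These differences were not tested.

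**Figure D4:**
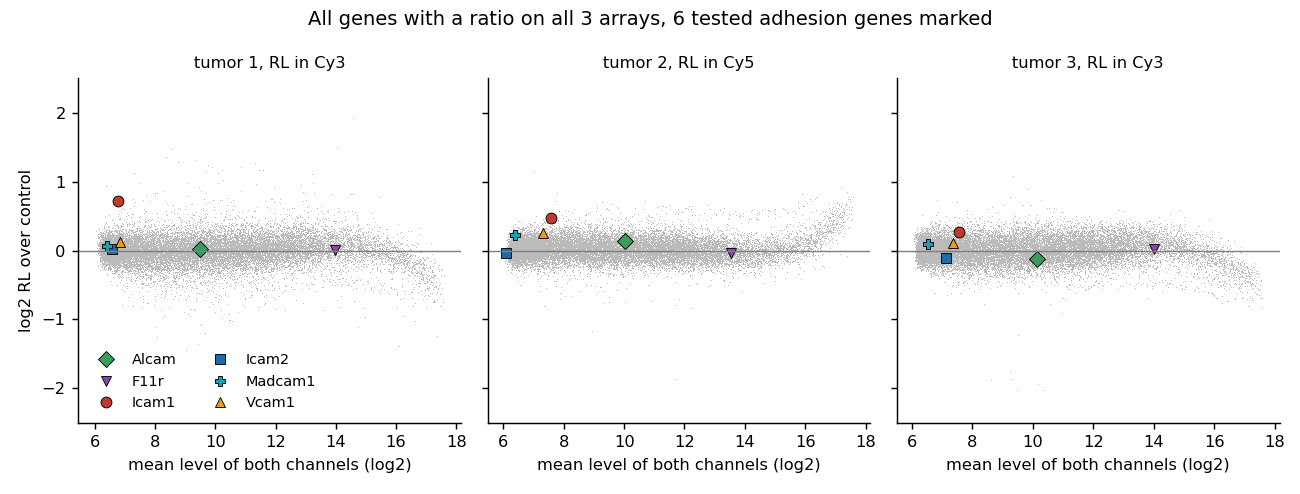
Log2 RL over control against the mean log2 level of both channels for all 21721 genes with a value on all 3 arrays (grey), 1 panel per tumor, with the 6 tested adhesion genes marked. Icam1 lies above 0 among the dim genes in each panel, nearer to the upper edge in tumor 1 than in tumor 3, and the brightest genes, above all 6 marked genes, bend downward in tumors 1 and 3 and upward in tumor 2.

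The brightest genes of the arrays followed the dye order. Above a log2 level of 15, the median log2 ratio was −0.12 in tumor 1 and −0.16 in tumor 3, with RL in Cy3, and 0.12 in tumor 2, with RL in Cy5. The 6 tested adhesion genes all had levels below that. The part of dye in their ratios was not tested apart from tumor 2, the only tumor with RL in Cy5.

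The promoter table at hand, drawn from RefSeq (GRCm38.p6), holds windows from 250 bases before to 50 after the start, with entries for 6 of the 8 genes. These were searched on both strands for GGNNNTTCC, a 9-letter pattern for NF-κB sites whose reverse complement is GGAANNNCC. At least 1 match was found in 5 of the 6, and in 18.5% of all 32851 windows. The 250 bases before the start are shown for Icam1, for Madcam1, which also had ratios above 0 in all 3 tumors, and for Sele, which was not measured above background, each 5′ to 3′ on the + strand with the matches in capitals. They lie at chr9:21015690-21015939 for Icam1, chr10:79664309-79664558 for Madcam1 and chr1:164047984-164048233 for Sele.
Icam1: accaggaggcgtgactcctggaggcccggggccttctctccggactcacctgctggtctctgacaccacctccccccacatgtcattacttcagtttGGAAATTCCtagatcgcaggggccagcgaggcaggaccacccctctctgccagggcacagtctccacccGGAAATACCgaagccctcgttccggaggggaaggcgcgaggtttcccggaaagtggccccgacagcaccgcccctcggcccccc
Madcam1: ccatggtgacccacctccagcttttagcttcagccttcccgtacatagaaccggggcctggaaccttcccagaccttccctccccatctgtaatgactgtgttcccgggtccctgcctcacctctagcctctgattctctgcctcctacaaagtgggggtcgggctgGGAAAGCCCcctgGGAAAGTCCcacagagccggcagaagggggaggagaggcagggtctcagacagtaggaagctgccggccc
Sele: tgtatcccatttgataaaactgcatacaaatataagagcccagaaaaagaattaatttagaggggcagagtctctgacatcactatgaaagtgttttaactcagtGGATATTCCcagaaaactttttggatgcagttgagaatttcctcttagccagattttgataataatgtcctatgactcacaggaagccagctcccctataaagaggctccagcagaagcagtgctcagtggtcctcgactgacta
The matches of Icam1, GGAAATTCC and GGAAATACC, begin 153 and 84 bases before the start. Those of Madcam1, GGAAAGCCC and GGAAAGTCC, begin 83 and 70 bases before it, and that of Sele, GGATATTCC, 145 bases before it. Selp had a match 14 bases before its start, F11r had one after its start, and Alcam had none. Matches were thus present for Icam1 and Madcam1 and, after the start, for F11r, whose ratios were near 0 in the main fit. Sele and Selp, with matches too, have no ratio here, and no binding was measured. Icam2 and Vcam1 had no window to search.

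Leukocyte receptors of the adhesion molecules were examined next. Of 14 genes, 9 were tested, and 0 passed the adjusted p of limma, 0 an unadjusted p under 0.05, 0 the dye term and 0 the rank product. Their median log2 ratio was −0.0058, against −0.0018 for all genes. The highest mean was that of Cd44, the hyaluronan receptor that also binds E-selectin, with 0.36, 0.15 and −0.038 in tumors 1, 2 and 3 (mean 0.16, SE 0.087). The lowest was that of Itgb1, the β chain of VLA-4 and the brightest of the list (here and below by mean control level), with 0.10, −0.11 and −0.20 (mean −0.069, SE 0.079). Among the others, Itgax, Itgad and Itga4 did not pass the filter on dim probes, and Itgae had no probe named.

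Other immunoglobulin-family and junction adhesion molecules numbered 22, of which 19 were tested and 0 passed the adjusted p of limma in either direction. Cd47, the ligand of the phagocyte receptor SIRPα, had log2 ratios of 0.94, 0.31 and 0.20 in tumors 1, 2 and 3, with a mean of 0.48 (SE 0.13) and an adjusted p of 0.424 from limma. It was the 1 gene of the list at an unadjusted p under 0.05 and the 1 gene past the threshold with the dye term (adjusted p = 0.00837 from limma), and the rank product called 0. Over all genes these shares were 3.5% upward and 3.58% downward without adjustment, and 0.557% and 0.723% with the dye term. As for Icam1, the largest ratio of Cd47 was in tumor 1, without which the mean was 0.26. The lowest mean was that of Jam2, a relative of F11r on endothelium, with −0.74, −0.019 and −0.049 (mean −0.27, SE 0.13). Without tumor 1 the mean of Jam2 was −0.034. Mcam, the brightest gene of the list, had −0.45, 0.48 and −0.50 and a mean of −0.16 (SE 0.17), and its sign followed the dye order. The median of the list was 0.019 (−0.12 with median centering), with 3 of 19 genes above 0 and 2 below 0 in all 3 tumors, beside 14.1% and 13.5% of all genes.

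Enzymes and scaffolds of selectin ligands were represented by 14 genes, of which 10 were tested. By limma, 0 passed the adjusted p and 0 an unadjusted p under 0.05, and 0 passed with the dye term or by rank product. The median log2 ratio was 0.015, and −0.085 with median centering. Cd34, a sialomucin scaffold, had the highest mean, 0.14 (SE 0.072), and B4galt1, a galactosyltransferase, the lowest, −0.12 (SE 0.085). The mean of Cd34 was 0.23 without background correction, 0.29 from the scanner software's processed signals and −0.045 with median centering. The ratio of B4galt1 was −0.28, 0.082 and −0.18 in tumors 1, 2 and 3, with signs as the dye order ran, and its mean was −0.047 without tumor 1. Cd24a, a mucin-like ligand of P-selectin and the brightest of the list, had a mean of −0.080 (SE 0.070). The genes Fut7, Chst4, Glycam1 and Emcn did not pass the filter on dim probes.

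Membrane anchors and sheddases, which tie adhesion molecules to actin or cut them from the surface, were all tested, with 14 of 14 genes and a median log2 ratio of 0.011, which was −0.19 with median centering. By limma, 0 passed the adjusted p. Timp3, an inhibitor of the sheddase Adam17, had −0.41, −0.35 and −0.32 in tumors 1, 2 and 3, with a mean of −0.36 (SE 0.068) and an adjusted p of 0.228 from limma. It was the 1 gene of the list lower at an unadjusted p under 0.05 and the 1 gene lower with the dye term (adjusted p = 0.00606 from limma), while the rank product called 0. Over all genes these downward shares were 3.58% without adjustment, 0.723% with the dye term and 0.235% by rank product. The ratios of Timp3 were similar in all 3 tumors, unlike those of Icam1. Msn, the moesin that links Icam1 and Icam2 to actin, had the highest mean, 0.13 (SE 0.082), and Flna, a filamin and the brightest of the list, had 0.038 (SE 0.069).

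NF-κB subunits and feedback genes had the highest median of the lists examined, 0.30, with 0.45, 0.18 and 0.21 in tumors 1, 2 and 3, and 0.10 with median centering. Of 22 genes, 21 were tested and 0 passed the adjusted p of limma. Without adjustment, 11 had p under 0.05 upward and 0 downward, the dye term called 10 higher and the rank product 5 higher, and 12 were above 0 in all 3 tumors. Over all genes these upward shares were 3.5% without adjustment, 0.557% with the dye term, 0.17% by rank product and 14.1% above 0 in all 3 tumors. Nfkbia, the inhibitor IκBα, had the highest mean, 0.77 (SE 0.18, adjusted p = 0.348 from limma), with 1.47, 0.47 and 0.38 in tumors 1, 2 and 3. It passed with the dye term (adjusted p = 0.000362 from limma) and by rank product (pfp = 0.00122). Like that of Icam1, its ratio was highest in tumor 1 and lowest in tumor 3, and without tumor 1 the mean was 0.42. Ikbkb, the kinase IKKβ, had the lowest mean, −0.14 (SE 0.083), and Bcl3, the brightest of the list in control, had 0.12 (SE 0.076).

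Cytokines known to induce the adhesion molecules, and their receptors, had a median log2 ratio of 0.098 over 13 tested of 16 genes. By limma, 0 passed the adjusted p, 5 were higher at an unadjusted p under 0.05, the dye term called 2 higher and the rank product 0, beside 3.5%, 0.557% and 0.17% of all genes. The highest mean was that of Ifngr1, a chain of the interferon-γ receptor, with 0.73, 0.22 and 0.28 in tumors 1, 2 and 3 (mean 0.41, SE 0.10, adjusted p = 0.394 from limma), and a mean of 0.25 without tumor 1. Il1r1, the interleukin-1 receptor, had the lowest mean, −0.097 (SE 0.084), and Tnfrsf1a, the TNF receptor with the brightest signal of the list, had −0.093 (SE 0.074). Ifng, Il4 and Il13 did not pass the filter on dim probes.

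**Figure D5:**
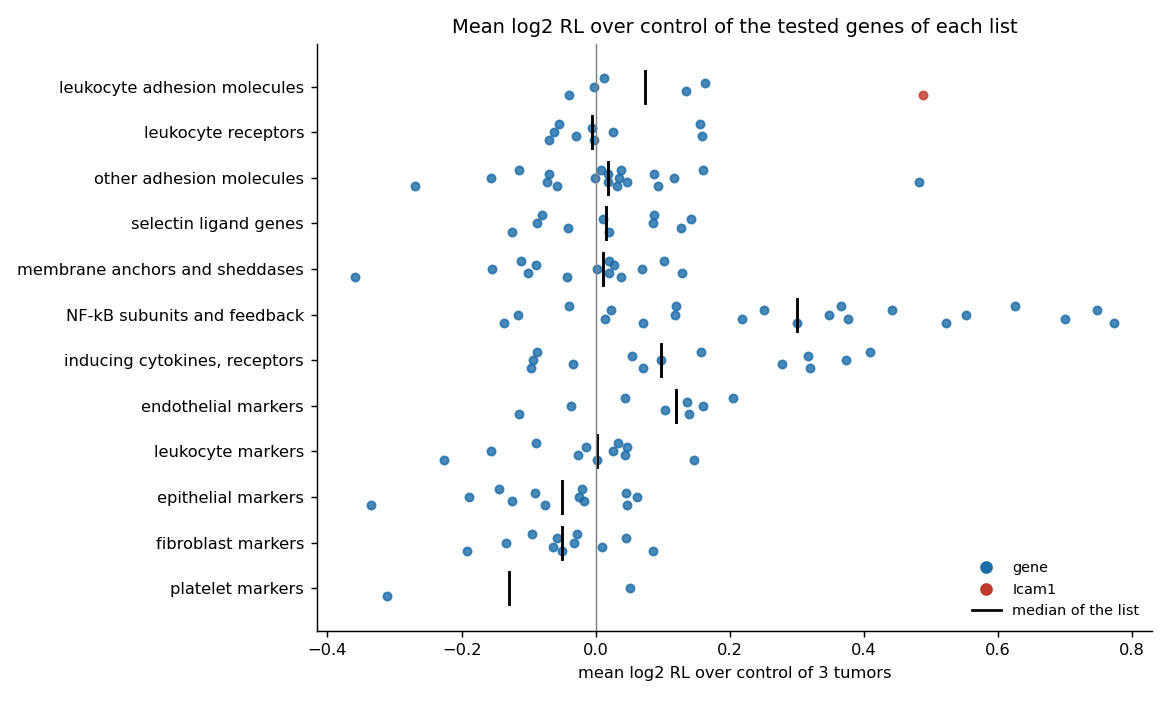
Mean log2 RL over control of the 3 tumors for each tested gene of the 12 lists, with the median of each list as a bar and Icam1 in red. NF-κB subunits and feedback genes have the highest median (0.30), and the other adhesion molecules lie around a median of 0.019 (−0.12 with median centering) with Cd47 at 0.48.

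The 8 named genes whose log2 ratios lay closest to those of Icam1 were taken by root mean square difference over the 3 tumors, among 13662 genes well above background in all 6 channels. Cxcl16, a transmembrane chemokine that also holds leukocytes, was the closest, with 0.68, 0.45 and 0.23 in tumors 1, 2 and 3 and a difference of 0.032. Mt2, a metallothionein, had 0.77, 0.51 and 0.19. Birc3, the inhibitor of apoptosis cIAP2, had 0.66, 0.51 and 0.16. These were followed by Dram1, Acod1, Cep162, Mapk11 and Plekhs1, with differences of 0.079 to 0.11 and means of 0.40 to 0.56. All 8 had their largest ratio in tumor 1 and their smallest in tumor 3, as their choice by likeness to Icam1 favors, and their adjusted p from limma was 0.188 to 0.368. With the dye term all 8 passed, with adjusted p of 0.000388 to 0.0109 from limma, beside 0.557% of all genes upward. Icam1 passed that fit too, so the choice by likeness to Icam1 also favored these calls, and no conclusion is drawn from them. By rank product Plekhs1 passed (pfp = 0.0314), beside 0.17% of all genes upward.

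Cell type markers were set beside these values, since several of the 8 genes are known from endothelium and platelets. Epithelial markers were tested for 12 of 12 genes, all well above background in all 6 channels, with Krt18 the brightest. Their summed normalized level was 389667, 303700 and 525177 in control and 326651, 325261 and 399713 with RL, in tumors 1, 2 and 3. Their median log2 ratio was −0.050, and −0.23 with median centering. The sum followed Krt18, which had −0.73, 0.43 and −0.70 (mean −0.33, SE 0.20), as the dye order ran, while the median of the list was 0.13, −0.17 and −0.072 in tumors 1, 2 and 3. Cldn4 had the highest mean of the list, 0.062 (SE 0.094).

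Endothelial markers passed the filter for 8 of 15 genes, with Kdr the brightest, and the vessel wall genes Cdh5, Tek, Tie1, Vwf, Emcn, Erg and Sox17 did not pass. The summed level of the tested genes was 3908, 4148 and 4569 in control and 4335, 4171 and 5177 with RL. The median log2 ratio was 0.12, and −0.010 with median centering, and 0 genes passed the adjusted p, an unadjusted p under 0.05, the dye term or the rank product. Flt1 had the highest mean, 0.21 (SE 0.12), from 0.28, −0.18 and 0.52 in tumors 1, 2 and 3, and the mean was 0.049 without tumor 3, 0.40 without tumor 2 and 0.032 with median centering. Pecam1 had the lowest, −0.11 (SE 0.094), from −0.19, 0.15 and −0.31, and −0.018 without tumor 3. The signs of both followed the dye order, and Kdr had 0.10 (SE 0.079). The mean ratios of Vcam1 and Madcam1 were positive, and the endothelial median was positive except with median centering. The part of endothelial cells in any ratio was not tested.

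Leukocyte markers passed the filter for 11 of 15 genes. Their summed level was 22260, 10665 and 12449 in control and 30397, 9710 and 12818 with RL, and Cd14 was the brightest. The sum followed Cd14, whose log2 ratio was 0.56, −0.18 and 0.058 (mean 0.15, SE 0.12), while the median of the list was 0.0022, or −0.13 with median centering. Cd68 of macrophages had the lowest mean, −0.23 (SE 0.074). It was the 1 gene of the list at an unadjusted p under 0.05, beside 3.5% of all genes upward and 3.58% downward. The T cell marker Cd3e was well above background in all 6 channels, with a mean of 0.0022, while its partner Cd3d and the B cell marker Cd79a did not pass the filter, and Ly6g of neutrophils had no probe named. The part of leukocytes in the ratio of Icam1 was not tested.

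Fibroblast markers were tested for 11 of 11 genes, with summed levels of 17619, 22248 and 28879 in control and 16374, 21221 and 28072 with RL. The median log2 ratio was −0.051 in the main fit, −0.20 with median centering and below 0 in each other rescaling. By tumor it was −0.29, 0.081 and −0.050, with signs as the dye order ran. Vim was the brightest with a mean of −0.027 (SE 0.078), Fap had the highest, 0.086 (SE 0.087), and Pdgfra the lowest, −0.19 (SE 0.082). The 1 gene of the list at an unadjusted p under 0.05 was Pdgfra, beside 3.5% of all genes upward and 3.58% downward. Pdgfra had −0.38, −0.15 and −0.047 in tumors 1, 2 and 3, with a mean of −0.098 without tumor 1. Platelet markers passed for 2 of 5 genes, Pf4 and Ppbp, with means of −0.31 (SE 0.12) and 0.051 (SE 0.098). Pf4 had −0.69, −0.033 and −0.21 in tumors 1, 2 and 3, and a mean of −0.12 without tumor 1. It was the 1 platelet gene lower at an unadjusted p under 0.05, beside 3.58% of all genes. The sum of Pf4 and Ppbp was 4365, 1188 and 4164 in control and 2761, 1167 and 3886 with RL, and Gp9, Itga2b and Gp1bb did not pass. By limma, 0 genes of the epithelial, leukocyte, fibroblast and platelet lists passed the adjusted p, and the dye term and the rank product also called 0.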

How the data were processed

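The authors read spot intensities of both dyes with Agilent Feature Extraction 10.7.3.1 and deposited median spot and background intensities without correction, together with a table of normalized log2 ratios. Set against the scanner values, the authors' log2 ratios ran as Cy5 over Cy3, with Pearson's r of −0.885, 0.874 and −0.880 to log2 RL over control in tumors 1, 2 and 3. Their column medians were 0.00329, 0.000361 and 0.000888, and the methods name base 2 logarithms. Slopes against log2 RL over control were 1.40, 1.59 and 1.50 in size.

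Intensities were processed with limma 3.58.1 in R 4.3.3: normexp with an offset of 50, removal of control spots, intensity loess, spatial loess (span 0.1) and Aquantile. Outlier spots (204, 195 and 223) were left out and spots of a probe averaged. Accessions were matched to RefSeq (GRCm38.p6) symbols for 28026 of 55681 probes. The brightest probe past the filter stood for a gene. Ratios of RL over control, paired by tumor within the array, were fitted with lmFit and eBayes and adjusted by Benjamini-Hochberg over all genes tested, at a threshold of 0.05. The number of arrays limits the precision. The rank product, written for this work, used 1000 permutations.

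The 8 genes and the gene lists were chosen with earlier results of these data known. From each list the tested genes with the highest and the lowest mean ratio, the brightest gene and any gene past the threshold in the main fit are named, with the 8 genes most like Icam1. Genes past it only with the dye term or by rank product are counted, and not all are named. Programs were tested on simulated data.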

Additional observations from a re-analysis of the deposited data

How the results depend on the processing

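The log2 ratio of Icam1 stayed above 0 in 19 of 19 alternatives, between 0.37 and 0.97. Its adjusted p from limma passed 0.05 with a dye term (log2 ratio 0.49) and without tumor 2, where RL and dye cannot be told apart, and over the alternatives the adjusted p or pfp lay between 0.000530 and 1.00. Leaving out each tumor in turn gave 0.37 to 0.60 for Icam1, −0.051 to 0.080 for Alcam and −0.015 to 0.013 for F11r. Alcam was −0.12 with median centering. F11r was 0.0062 without background correction and 0.0033 with the authors' log2 ratios. Vcam1 (0.11 to 0.29) and Madcam1 (0.085 to 0.36) stayed above 0 and Icam2 (−0.18 to −0.0086) below 0 in the alternatives run, with no call. Icam2 has no value with all 6 channels required above background, and Sele and Selp have none that is reported.

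Counts of genes called, 1 higher and 5 lower by limma, became 37 and 51 by rank product. A dye term gave 121 and 157, an intensity trend 9 and 21, robust moderation 7 and 13, raw signals without background correction 6 and 11, an offset of 10 4 and 10, and the authors' log2 ratios 2 and 7. No gene was called (0 and 0) when channels were fitted unpaired, when arrays were centered on the median or when the processed signals of the scanner software were used. Dropping the filter on dim probes, or requiring all 6 channels above background, gave 0 and 3, and the mean over probes 1 and 3. Leaving out each tumor gave 0 to 557 higher and 1 to 913 lower, the highest counts without tumor 2.

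Of 703 values of 37 other named genes, 16 changed sign. With median centering, which moved the median of all genes to −0.11, these were Cd44 (−0.014), Cd34 (−0.045), Msn (−0.065), Cd14 (−0.044), Cldn4 (−0.12), Ppbp (−0.079), Flna (−0.18), Bcl3 (−0.063) and Kdr (−0.060). With a dye term Mcam was 0.0021. Leaving out each tumor in turn gave −0.061 to 0.31 for Cd14, −0.056 to 0.18 for Cldn4, −0.028 to 0.16 for Fap, −0.083 to 0.17 for Ppbp, −0.47 to 0.016 for Mcam and up to 0.035 for Vim. Without a turn of sign, it gave 0.056 to 0.26 for Cd44, −0.15 to −0.0057 for Itgb1, 0.041 to 0.21 for Msn, −0.21 to −0.041 for Ikbkb, −0.20 to −0.015 for Il1r1, −0.13 to −0.027 for Tnfrsf1a, 0.052 to 0.19 for Kdr, −0.72 to −0.14 for Krt18, 0.0036 to 0.068 for Flna, 0.071 to 0.19 for Bcl3, −0.11 to −0.041 for Cd24a, 0.049 to 0.40 for Flt1, −0.25 to −0.018 for Pecam1, −0.23 to −0.047 for B4galt1, −0.40 to −0.034 for Jam2 and −0.45 to −0.12 for Pf4. Median centering gave, with the sign kept, −0.25 for Itgb1, −0.28 for Cd24a, −0.28 for B4galt1, −0.30 for Ikbkb, −0.25 for Tnfrsf1a, −0.18 for Vim, −0.37 for Mcam, −0.60 for Krt18, −0.42 for Jam2, −0.55 for Timp3, −0.39 for Cd68, −0.49 for Pf4, −0.18 for Pecam1, 0.024 for Fap, 0.30 for Cd47, 0.26 for Ifngr1, 0.28 for Mt2, 0.26 for Acod1, 0.29 for Cep162 and 0.24 for Mapk11. Without tumor 2, where RL and dye cannot be told apart, Cd47, Nfkbia, Ifngr1, Flt1, Cd14, Jam2, Timp3, Cd68, Krt18, Pf4, Mcam and the 8 genes most like Icam1 passed the adjusted p of limma. None of these genes was past the threshold in the fit reported, and the cause was not tested. Icam1, Icam2, Vcam1 and Madcam1 lay close to background, which limits the size of their ratios.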
